A study of Saccharomyces cerevisiae with 7 samples.

Results

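ARG4 and DED81 are neighbouring genes on chromosome VIII of budding yeast, and the data described here are the Spo11-linked DNA ends mapped across these 2 genes and their surroundings. They were defined by place, as positions 138000 to 145000 of chromosome VIII in the authors' maps. This is a window of 7001 bp out of 11462368 bp of the maps and 2 genes out of 6002. It was chosen with earlier results of these data known. Meiotic cells of the SK1 strain that lack Sae2 were collected after 6 h in sporulation medium. By their labels all libraries used here share the sae2∆ background, although the map names of SPO11+ replicate 5 say WT. SPO11+ cells were represented by 5 biological replicates, the fifth of them sequenced as 2 technical replicates that were summed, and spo11-Y135F cells, in which the catalytic tyrosine of Spo11 is replaced, by 1 library. The method, CC-seq, enriches DNA fragments that carry a covalently bound protein and reads the base at which the protein is attached. Each such 5′ end is called a hit here, and levels are given as HpM, hits scaled to a total of 1000000 in each library.

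Spo11 is related to topoisomerases and starts meiotic recombination by cutting both DNA strands and remaining joined to each 5′ end by its tyrosine. Sae2 activates the nuclease that clips Spo11 off, so that in sae2∆ cells the breaks accumulate with Spo11 attached. Breaks cluster in hotspots, most of which lie in the open chromatin of promoters. ARG4, which encodes argininosuccinate lyase, the last enzyme of arginine synthesis, is a classical site for the study of meiotic gene conversion, whose frequency is known to fall from the 5′ end of this gene towards its 3′ end. DED81 encodes the cytosolic asparaginyl-tRNA synthetase. Both genes are encoded on the Crick strand and read leftwards, so that the interval between them lies upstream of ARG4 and downstream of DED81. DED81 and its right neighbour YHR020W, which encodes a prolyl-tRNA synthetase, diverge, and their interval lies upstream of both. On the left, ARG4 meets the 3′ end of YSC83, and YSC83 diverges from YSC84, which encodes an actin-binding protein. The positions of these open reading frames (ORFs) came from a gene table of another assembly, and only distances from them are given.

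The SPO11+ replicates held 3177210 to 8564017 hits, with replicate 2 the deepest, and the spo11-Y135F library held 2326054. In the window, the SPO11+ replicates had 6088, 21454, 9950, 8195 and 7905 hits, which correspond to 1916, 2505, 2210, 2302 and 2215 HpM. Their mean was 2230 ± 212 HpM (SD, n = 5), or 0.223% of all hits on 0.0611% of the positions. The spo11-Y135F library had 1315 hits in the window, or 565 HpM (95% Wilson interval 536 to 597), below every SPO11+ replicate. With 1 control library against 5 replicates no exact permutation test can give a p below 0.167, so differences from the control have no test, and the intervals cover counting error only. Across the 14002 strand-specific positions of the window, biological replicates correlated with each other at r = 0.927 to 0.989, and the technical replicates of replicate 5 at 0.950. Every pair of replicates with replicate 5 had r of 0.941 or less, and every other pair 0.949 or more. Replicate 5 is the one whose map names say WT, and the part of this in its lower r was not tested. Against the control, r was 0.005 to 0.008.

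In SPO11+ cells the hits of the window fell mostly into 3 of its 4 intergenic intervals. The 491 bp between ARG4 and DED81 made up 7.01% of the window and held 40.8% ± 2.21 of its hits. The 437 bp between DED81 and YHR020W made up 6.24% of the window and held 38.1% ± 2.86. The interval between YSC84 and YSC83, 238 bp long, held 11.2% of them, with a mean of 246 ± 36.1 HpM. The remaining interval, 159 bp between the converging 3′ ends of YSC83 and ARG4, had 0.0169 ± 0.0039 HpM per bp, against 0.0757 HpM per bp in spo11-Y135F. The intervals that contain a gene's upstream region were thus the ones with many hits, and the one without was poor in them. In spo11-Y135F the hits were spread along the window, and the ARG4 to DED81 interval held 7.83% of them. HpM is a share of each library, so levels in SPO11+ and spo11-Y135F do not compare absolute amounts.

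**Figure D1:**
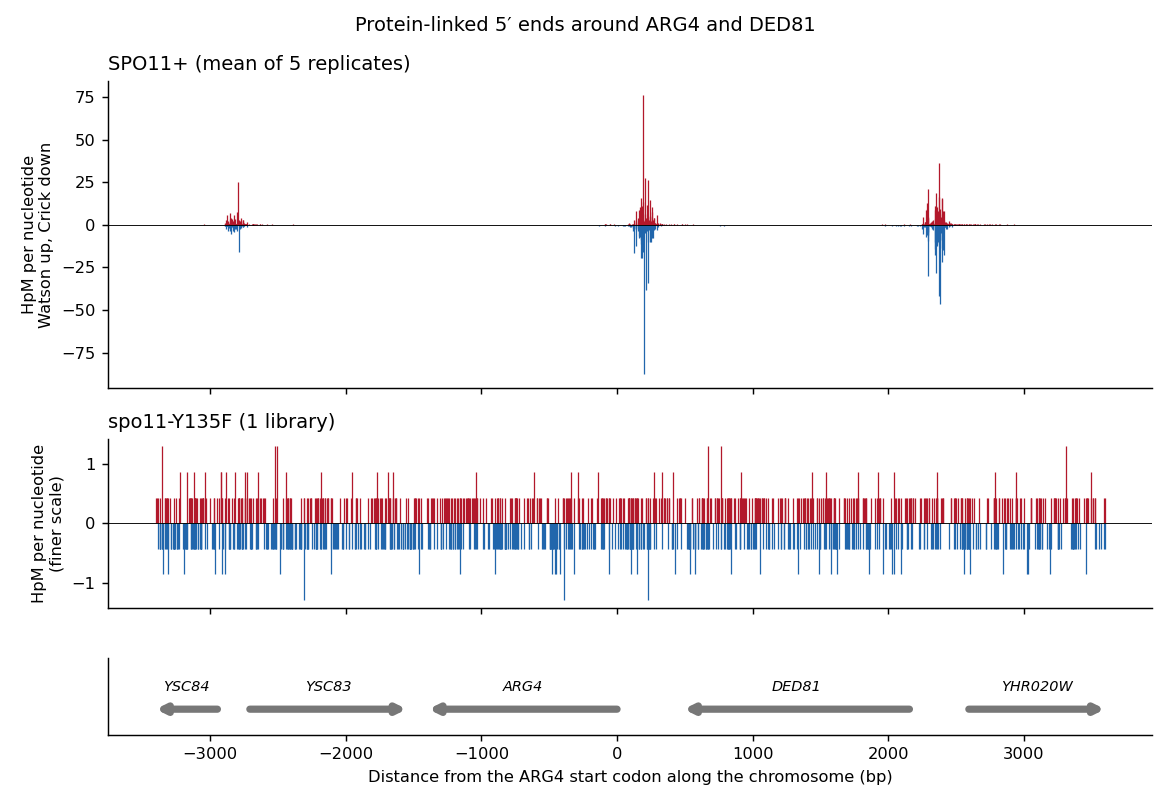
HpM at each nucleotide of the Watson strand (up, red) and the Crick strand (down, blue) against distance from the ARG4 start codon in bp, as the mean of the 5 SPO11+ replicates (top) and in the spo11-Y135F library (middle, on a finer scale), with arrows for the ORFs in their direction of reading, YSC84 and YHR020W being cut at the window's ends. The SPO11+ signal stands in 3 narrow groups, between YSC84 and YSC83, between ARG4 and DED81, and between DED81 and YHR020W, while the spo11-Y135F hits are scattered.

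Upstream of ARG4, the SPO11+ replicates had 2323, 9369, 4226, 3269 and 3160 hits, or 731, 1094, 939, 918 and 885 HpM. The mean was 913 ± 130 HpM, and replicate 1 was the lowest. The spo11-Y135F library had 103 hits there, or 44.3 HpM (36.5 to 53.7), so that the SPO11+ mean was 20.6 times as high. Upstream of DED81, the replicates had 679, 937, 794, 977 and 871 HpM, with a mean of 851 ± 119. Here too replicate 1 was the lowest, while replicate 4 and not replicate 2 was the highest. The control had 75 hits, or 32.2 HpM (25.7 to 40.4), and the SPO11+ mean was 26.4 times as high. No SPO11+ replicate came near the control in either interval. These ratios are between shares of libraries and not between absolute amounts.

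The difference between the 2 intervals was smaller than the spread between replicates. The ratio of hits upstream of ARG4 to hits upstream of DED81 was 1.08, 1.17, 1.18, 0.940 and 1.02 in the 5 replicates. Replicate 4 was thus the only one with more hits upstream of DED81. The geometric mean was 1.07, and the exact two-sided permutation test of signs over the replicates gave p = 0.1875, where 0.0625 is the smallest value that 5 replicates allow. Within single libraries counting error was narrower than this spread, since the ARG4 side took 53.9% (53.1% to 54.6%) of the hits of both intervals in replicate 2 and 48.5% (47.3% to 49.7%) in replicate 4.

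To call hotspots, the replicates were averaged and the map was smoothed by Hann weights over 100 bp on either side of a position. A hotspot was a run of 25 bp or more in which the smoothed level exceeded the genome mean at least 3-fold. The window held 3 of the 2682 hotspots. The ARG4 to DED81 hotspot ran from 141454 to 141748 on chromosome VIII (authors' map Cer3H4L2), a width of 295 bp, with its peak at 141601. It held 893 ± 126 HpM and ranked 134 in the genome, and among the 1316 hotspots in intervals between genes read in the same direction it ranked 45. At its peak the smoothed level was 6.70 HpM per bp, 77.3 times the genome mean. The peak stood 199 bp upstream of the ARG4 start codon and 293 bp from the 3′ end of DED81. By the gene table the hotspot was thus closer to the gene whose upstream region it occupied. Its nearer edge was 52 bp from ARG4, against 146 bp from DED81 on the other side.

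The DED81 to YHR020W hotspot ran from 143597 to 143896, over 300 bp, with its peak at 143769. It held 835 ± 120 HpM and ranked 156 in the genome and 82 among 1144 hotspots between diverging genes. Its peak, 211 bp from the DED81 start codon and 227 bp from that of YHR020W, stood near the middle of the interval. It reached 5.64 HpM per bp. The weakest of the 3 hotspots, between YSC84 and YSC83, ran from 138471 to 138697 with 245 ± 36.1 HpM and rank 699. By the gene table its right edge lay 3 bp inside the YSC83 ORF, a distance too small to be certain across assemblies.

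All 3 hotspots were called in 5 of 5 SPO11+ replicates taken alone, and none in spo11-Y135F, where the same caller found 15 stretches in the whole genome. Peaks moved by no more than 4 bp between replicates for ARG4 to DED81, 6 bp for DED81 to YHR020W and 8 bp for YSC84 to YSC83. Within the boundaries from the mean map, genome ranks ranged over the replicates from 122 to 189 for the first, 122 to 210 for the second and 567 to 897 for the third. The ranges of the first 2 overlapped almost entirely, so their order in the genome was not resolved by these replicates. The control had 74 hits in the ARG4 to DED81 hotspot, or 31.8 HpM (25.3 to 39.9), and 42 in the DED81 to YHR020W hotspot, or 18.1 HpM (13.4 to 24.4).

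**Figure D2:**
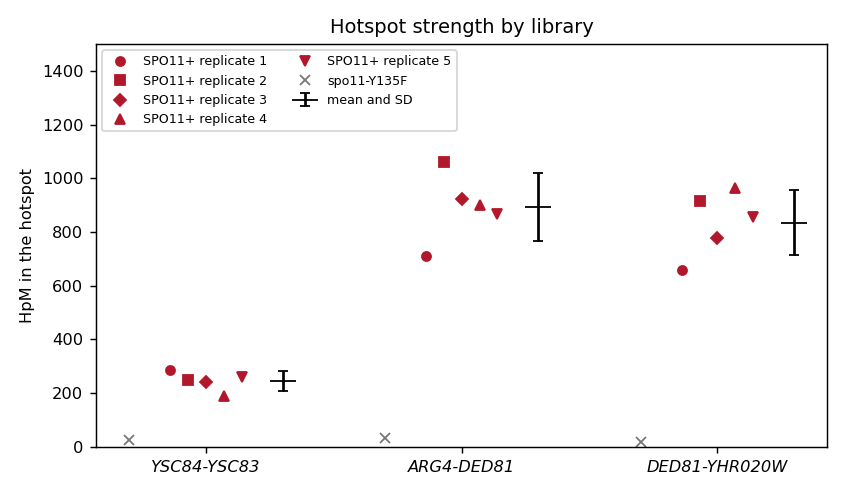
HpM in each of the 3 hotspots of the window, for each SPO11+ replicate (red symbols), their mean with SD (black, n = 5) and the spo11-Y135F library (grey crosses). The ARG4 to DED81 hotspot (711 to 1062 HpM) and the DED81 to YHR020W hotspot (659 to 964 HpM) overlap each other, and both lie above the YSC84 to YSC83 hotspot (189 to 287 HpM) and above the control.

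The hotspots beside ARG4 and DED81 were long but not broad. Their called widths exceeded those of 75.0% and 75.7% of all hotspots, whose median was 187 bp. Called width grows with height under a fixed threshold. In the smoothed map, the width at 50% of the peak's own height was 124 bp for ARG4 to DED81 and 137 bp for DED81 to YHR020W. Both were below the genome median of 141 bp. Smoothing over 100 bp on either side widens all of these values, so they compare hotspots and do not give their true widths. In 50 bp steps from its peak, the ARG4 to DED81 hotspot had 443 HpM in the step to the left and 276 HpM in the step to the right. It had fallen to 11.1 ± 3.76 HpM between 150 and 100 bp to the left and to 11.0 ± 2.48 HpM between 100 and 150 bp to the right. The 3 peaks were 3018 and 2168 bp apart. The next hotspot on the left was 12407 bp away from the edge of the YSC84 to YSC83 hotspot. The next on the right was 4995 bp from that of DED81 to YHR020W. How these distances compare with the spacing of other hotspots was not measured.

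Inside the ORFs the SPO11+ signal was low and unevenly spread. The ARG4 ORF, 1392 bp long, held 48.7 ± 5.56 HpM, against 107 HpM in spo11-Y135F. The DED81 ORF, 1665 bp long, held 76.2 ± 6.57 HpM, against 137 HpM. Because HpM is a share of each library and the control has no hotspots to take up its hits, these lower values do not compare absolute amounts. In the interior of the ORFs, beyond 400 bp from the start codon and 300 bp from the stop codon, ARG4 had 0.0187 ± 0.0046 HpM per bp and DED81 0.0228 ± 0.0043 HpM per bp. The medians over 3506 ORFs ranged from 0.0096 to 0.0216 between the replicates, lowest in replicate 2, and replicate 2 was also the lowest in both genes. DED81 lay above the median ORF of the same library in 5 of 5 replicates, and ARG4 in replicates 1, 2 and 4. In the control the median ORF had 0.0848 HpM per bp.

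Hits fell along ARG4 from its 5′ end. The first 300 bp of the ORF held 70, 345, 129, 96 and 77 hits in the 5 replicates and the last 300 bp held 17, 20, 25, 20 and 16. The ratio was 4.12, 17.2, 5.16, 4.80 and 4.81, above 1 in 5 of 5 replicates, with a geometric mean of 6.10. The exact permutation test of signs gave p = 0.0625, the smallest value 5 replicates allow, so the design could not reach 0.05. Replicate 2 stood far above the others, and without it the mean log2 ratio was 2.23 in place of 2.61. In spo11-Y135F the 2 ends had 49 and 55 hits, a ratio of 0.891 (0.608 to 1.31). Of 4606 ORFs measured in the same way on the mean map, 98.2% had a lower ratio than ARG4, and the median was 1.24. In 100 bp steps from the start codon, ARG4 had 13.3 ± 4.22, 8.96 ± 3.00, 5.66 ± 0.677 and 3.25 ± 1.10 HpM, and the later steps lay between 1.24 and 2.49 HpM.

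DED81 began in the same way and ended differently. Its first 3 steps of 100 bp had 15.0 ± 2.91, 10.1 ± 1.96 and 6.86 ± 1.21 HpM, with replicate ranges that overlapped those of ARG4, and from 400 to 1300 bp it stayed between 1.53 and 2.74 HpM. Its last 3 full steps had 5.82 ± 1.49, 4.85 ± 1.75 and 6.26 ± 1.24 HpM, where ARG4 had no such rise. This end of DED81 borders the ARG4 to DED81 interval, while the 3′ end of ARG4 borders the interval without a hotspot. The ratio of the first to the last 300 bp of DED81 was 1.80, 1.79, 1.55, 1.73 and 1.58, with a geometric mean of 1.69, less than in ARG4 in every replicate. It was above 1 in 5 of 5 replicates (exact permutation test of signs, p = 0.0625), higher than in 74.4% of ORFs, and 0.750 (0.517 to 1.09) in spo11-Y135F. The last 300 bp of DED81 had 18.9 ± 2.52 HpM, against 4.67 ± 1.38 HpM in ARG4, with no overlap between the replicates of the 2 genes.

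**Figure D3:**
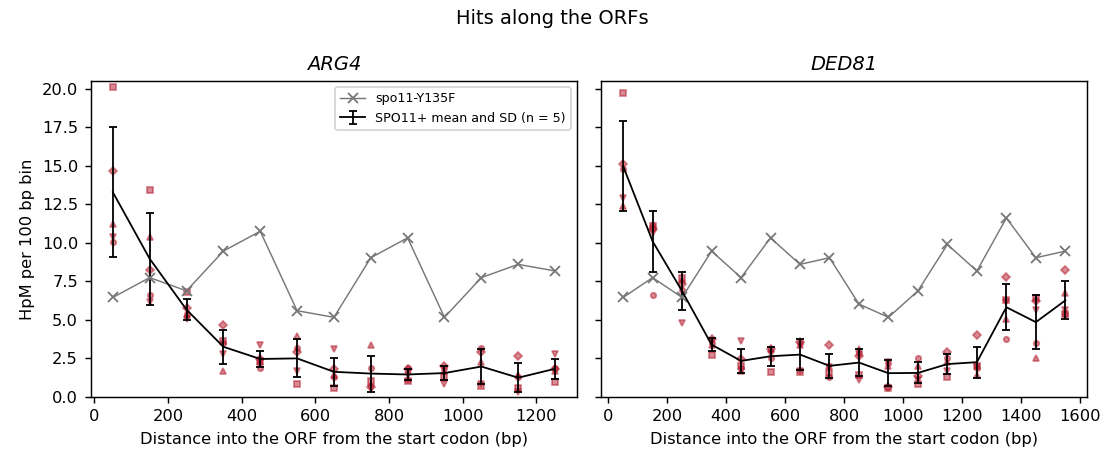
HpM in 100 bp bins from the start codon of ARG4 (left) and DED81 (right), as SPO11+ replicates (red symbols), their mean with SD (black, n = 5) and the spo11-Y135F library (grey). The SPO11+ level falls over the first 400 bp of both ORFs, rises again over the last 300 bp of DED81 and does not rise at the end of ARG4, while the control shows no such course.

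Spo11 cuts the strands with a stagger, so that each double cut places a Watson 5′ end at one position and a Crick 5′ end at the next. In the window the number of Watson hits at a position correlated with the number of Crick hits 1 bp to the right at r = 0.919 ± 0.011 over 255 to 526 sites per replicate, and 1 bp was the offset with the highest r in 5 of 5 replicates. At 0 bp r was 0.106 ± 0.026, and over the other offsets from -100 to +100 bp it averaged 0.044 ± 0.011. The control had 59 such sites, with r of -0.033. These coefficients are across positions of a library, which are not independent, and are given as a description. Sites with hits on both strands at this offset held 85.2% ± 2.38 of the window's hits in SPO11+ and 9.43% in the control. A site counts here with as few as 1 hit on each strand. At 0 bp such sites held 74.9% in SPO11+ and 9.96% in the control. At 2 bp they held 71.5% and 8.52%. The share therefore does not by itself measure paired cuts.

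Paired sites, those with hits on both strands 1 bp apart, held most hits in the hotspots and few in the ORFs. In the ARG4 to DED81 interval r was 0.963 ± 0.011 and paired sites held 93.9% of the hits, and in the DED81 to YHR020W interval r was 0.869 ± 0.037 with 93.3%. In the ARG4 ORF paired sites held 15.3% of the hits, with a range of 7.5% to 33.0%, and in the DED81 ORF 18.3%. Replicate 2, the deepest, had the highest share in ARG4. The part of depth and of hit density in the shares of intervals and ORFs was not tested.

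**Figure D4:**
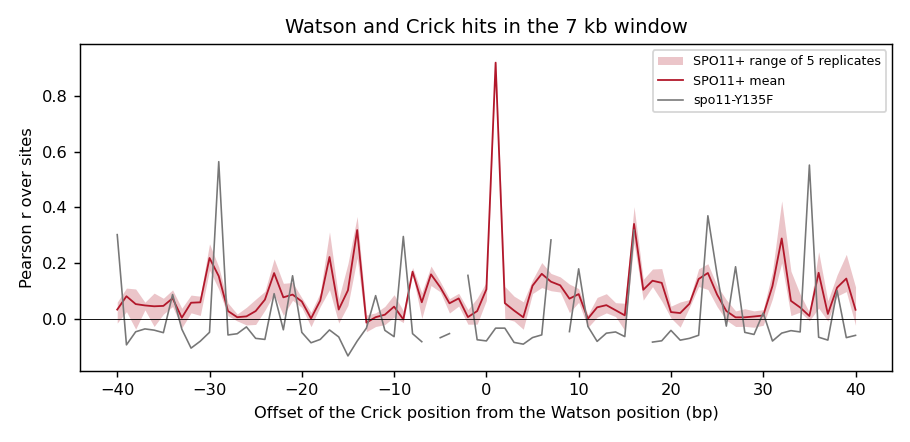
Pearson's r between Watson and Crick hits over sites of the window with hits on both strands, against the offset of the Crick position from the Watson position in bp, as the mean of 5 SPO11+ replicates (red line), their range (pink band) and the spo11-Y135F library (grey line, which rests on few sites and is broken where r has no value). The SPO11+ curve has its peak of 0.919 at 1 bp and lower rises at -14, 16 and 32 bp.

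The strongest pair of positions lay upstream of ARG4, with its Watson end at 141596 and its Crick end at 141597, 194 bp from the ARG4 start codon. Its Watson and Crick hits were 202 and 238, 816 and 918, 402 and 461, 275 and 350, and 198 and 200 in the 5 replicates. Together they made 163.9 ± 38.0 HpM, and the pair was first in the window in all 5 replicates and ranked 69 in the genome. It held 18.3% ± 3.14 of the hits of its hotspot, more than the strongest pair did in 81.2% of hotspots, and spo11-Y135F had no hit at it. In the mean map 9 pairs made up 50% of the ARG4 to DED81 hotspot, and the median over all hotspots was also 9.

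The DED81 to YHR020W hotspot was less dominated by single positions. Its strongest pair, at 143774 and 143775, had 78.2 ± 16.8 HpM and held 9.36% of the hotspot in the mean map, against a genome median of 11.9% for the strongest pair, and 11 pairs made up 50%. The pair at 143779 and 143780 followed with 63.0 ± 8.68 HpM. Upstream of ARG4, the pairs with Watson ends at 141611 and 141627 had 66.0 ± 10.7 and 60.7 ± 7.99 HpM. The list of the 8 strongest pairs was completed by 143695 with 51.0 ± 4.78, 143756 with 47.0 ± 8.13 and, between YSC84 and YSC83, 138610 with 40.6 ± 11.7 HpM. These 8 pairs, out of 3732 with hits, held 25.6% ± 1.47 of all hits of the window in SPO11+, and the control had 2 hits at them.

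Of the 20 strongest pairs of the window, 8 lay in the ARG4 to DED81 hotspot and 11 in the DED81 to YHR020W hotspot. Several of the first stood at near-equal steps, which was seen only after their values were known. From the strongest pair at 141596, the pair at 141581 lay at -15 bp, and those at 141611, 141627 and 141643 at 15, 31 and 47 bp. The pairs at 141587, 141589 and 141592, at -9, -7 and -4 bp, did not follow these steps. The offset curve is computed from the same hits and is no separate evidence for this spacing. Its r at 16 bp was 0.341 ± 0.0589, at -14 bp 0.319 ± 0.0580 and at 32 bp 0.289 ± 0.0847. With the hits of the strongest pair left out these 3 values were 0.117 ± 0.0377, 0.133 ± 0.0442 and 0.141 ± 0.0563, and r at 1 bp was 0.869 ± 0.0151, so that these 3 side rises were largely lost and the rise at 1 bp was not. At -17 bp r went the other way, from 0.222 ± 0.0793 to 0.329 ± 0.0511.

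**Figure D5:**
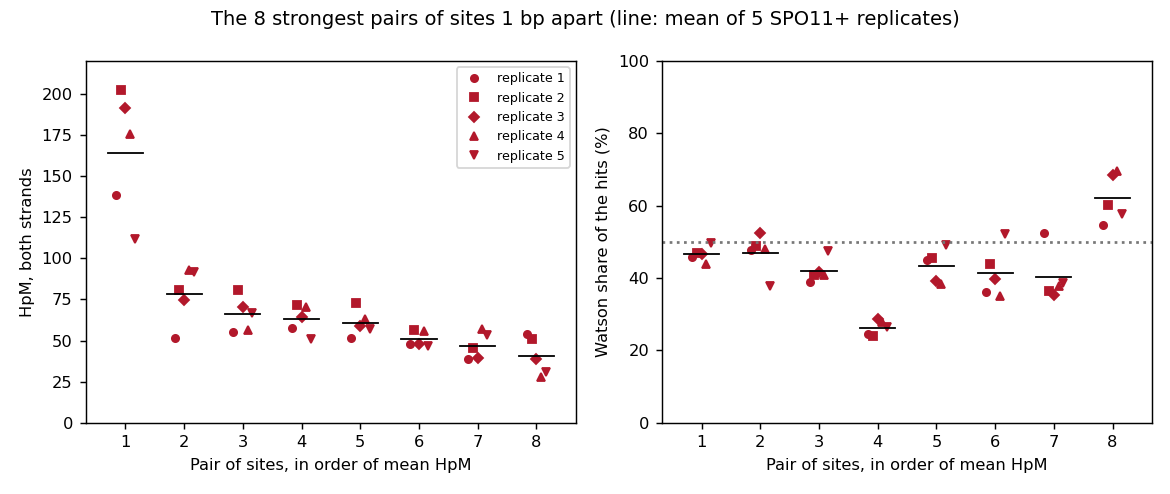
HpM on both strands (left) and the Watson share of the hits in percent (right, dotted line at 50%) for the 8 strongest pairs of the window in order of mean HpM, with Watson ends at 141596, 143774, 141611, 143779, 141627, 143695, 143756 and 138610, as 5 SPO11+ replicates (symbols) and their mean (line). The first pair stands above all others in every replicate, and the fourth, at 143779, has a Watson share of 24.0% to 28.6% while most others are nearer 50%.

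Watson and Crick hits of a pair come from the 2 sides of the same cut, and whether their numbers differed was tested with edgeR's quasi-likelihood test with the replicate as a block, over all pairs of the genome with at least 40 hits. Genome-wide 46.7% of 80146 pairs were called at an adjusted p below 0.05. In the window 71 of 159 pairs were called, 34 with more Watson and 37 with more Crick hits, a share of 44.7% that is near this background. With at least 80 hits a pair the share was 46.2% in the window and 54.2% in the genome, while an exact binomial test of summed hits, with a minimum of 8 hits and no adjustment, called 48.4% and 37.4%. Whether unequal strands were more or less frequent in the window than elsewhere thus depended on the setting.

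Of the 8 strongest pairs, 6 were called, against 46.7% of all pairs tested in the genome and 54.2% of those with at least 80 hits. These 8 pairs had 994 to 4060 hits each, and the share called among pairs of like depth was not measured. The largest difference was at 143779, upstream of DED81, where the Watson and Crick hits were 45 and 138, 147 and 466, 83 and 207, 70 and 180, and 48 and 134. All 5 replicates had more Crick hits, and the log2 ratio of Watson to Crick was -1.49 ± 0.156 (SE, edgeR adjusted p = 7.8e-13). Its neighbour 5 bp to the left, at 143774, had a log2 ratio of -0.17 ± 0.150 and was not called (edgeR adjusted p = 0.36). The strongest pair, at 141596, had more Crick hits in 5 of 5 replicates, by a log2 ratio of -0.19 ± 0.135 that did not pass (edgeR adjusted p = 0.24). At 138610 the Watson hits were the more numerous in 5 of 5 replicates, with a log2 ratio of 0.70 ± 0.170 (edgeR adjusted p = 0.00041). The other 4 called pairs, at 141611, 141627, 143695 and 143756, had log2 ratios from -0.38 to -0.60, and without the replicate block those at 141611 (edgeR adjusted p = 0.056) and 141627 (0.12) were not called.

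The strands were also compared in the thin signal of the 300 bp on each side of the hotspots, after the data had been seen. To the left of the ARG4 to DED81 hotspot, where all but the 52 bp next to it belong to ARG4, the Watson share was 27.2%, 23.4%, 49.3%, 52.3% and 31.8% in the 5 replicates, and to the right of it 69.6%, 75.5%, 51.9%, 48.2% and 51.5%. Replicates 1, 2 and 5 had a low share on the left, whereas replicates 3 and 4 were near 50% on both sides. The difference between right and left was 22.6 ± 24.4 percentage points, above 0 in 4 of 5 replicates (exact permutation test of signs, p = 0.1875). Beside the DED81 to YHR020W hotspot the share was 22.0%, 27.5%, 45.2%, 49.6% and 32.4% on the left and 69.6%, 80.6%, 55.1%, 61.9% and 71.1% on the right. The difference was 32.3 ± 20.0 points there, above 0 in 5 of 5 replicates (exact permutation test of signs, p = 0.0625, the smallest possible). Beside the YSC84 to YSC83 hotspot the difference was 26.2 ± 19.2 points, above 0 in 5 of 5 replicates (exact permutation test of signs, p = 0.0625). In both flanks of the hotspots beside ARG4 and DED81 the control had 41.5% to 51.1%.

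A split between the same replicates was present in the whole genome. Summed over the flanks of 2233 hotspots without a near neighbour, the Watson share was 41.6%, 39.1%, 51.0%, 51.6% and 42.6% on the left and 58.7%, 61.2%, 49.4%, 48.6% and 57.9% on the right. Replicates 3 and 4 thus lacked the difference genome-wide, and the flanks of the ARG4 to DED81 hotspot followed them. Beside DED81 to YHR020W these replicates still rose from left to right, from 45.2% to 55.1% and from 49.6% to 61.9%. Beside YSC84 to YSC83 they rose from 54.7% to 57.1% and from 45.2% to 56.4%. What sets these replicates apart is not given in the labels, and its part in the result was not tested.

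Other genes of arginine synthesis offer a comparison for ARG4 by function. Of 8 such genes, 6 had a hotspot in their upstream interval, against 59.2% of all 5714 genes with such an interval. By HpM in that interval ARG4, with rank 180 of all genes, was second to ARG1, which encodes argininosuccinate synthase, the step before ARG4, and had 3151 ± 85.3 HpM. It was followed by ARG7 with 699 ± 74.2 HpM, the gene of ornithine acetyltransferase. The ranges of ARG4 (731 to 1094 HpM) and ARG7 (601 to 798 HpM) overlapped. ARG3, ARG5,6 and ARG2 had 253, 147 and 90.7 HpM, each with a hotspot. ARG8, the acetylornithine aminotransferase, had 21.0 HpM and no hotspot, and CPA1 had 1.29 HpM in an interval of only 56 bp that ends at YOR302W. Hits beyond YOR302W were not counted for CPA1. Its low level and missing hotspot may therefore not be comparable with those of the other genes. As sums over intervals of 56 to 762 bp, the levels of these genes ran from near 0 to among the highest of the genome. The part of interval length in this span was not tested.

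Among 20 aminoacyl-tRNA synthetase genes, 15 had an upstream hotspot, against 59.2% of all genes, with DED81 and YHR020W counted once each for the hotspot they share. These 2 genes were second with 851 HpM and rank 227 of all genes. FRS2, a subunit of phenylalanyl-tRNA synthetase whose interval is shared with GAT1, had 3279 ± 227 HpM. KRS1, the lysyl-tRNA synthetase, had the lowest level of the list and no hotspot. Just above it, TYS1 and SES1, the tyrosyl- and seryl-tRNA synthetases, had 34.3 ± 6.02 and 34.3 ± 3.29 HpM and no hotspot. The KRS1 interval of 726 bp was also poor in hits in spo11-Y135F, with 5.16 HpM, against 75.7 HpM in the 845 bp of SES1. Whether part of the KRS1 interval was taken out of the maps was not tested. The low level and missing hotspot of KRS1 may therefore not be comparable with those of the other genes. The median of the list was 153 HpM, against 73.9 HpM for all genes.

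By shape, the smoothed profile within 500 bp of the ARG4 to DED81 peak was most like those of the hotspots between SIF2 and YMC2 (r = 0.9999 over 1001 positions) and between SVS1 and YPL162C, with 431 ± 46.5 and 242 ± 20.1 HpM. The DED81 to YHR020W profile was most like those between TUB3 and PHO84 (r = 0.9997) and between VMA10 and BCD1, with 74.5 ± 12.8 and 382 ± 25.8 HpM. Smoothing makes most single-peaked hotspots alike, and the median r over the 2459 hotspots compared was 0.982 for the first and 0.980 for the second, so that these likenesses set the named hotspots apart only slightly.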

How the data were processed

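The CC-seq data comprised 6 SPO11+ sae2∆ libraries of 5 biological replicates and a single spo11-Y135F sae2∆ library. The authors aligned read pairs with bowtie2 to Cer3H4L2, an S. cerevisiae build with added marker loci on chromosome III, placed the protein-linked 5′ end of each pair on its strand, and took out repeats, telomeres and rDNA. Each deposited library map gives unscaled counts for every nucleotide of the 2 strands. An average map deposited by the authors is in RPM (called HpM) and was used only as an alternative. The labels of replicate 5 give sae2, while the names of its maps say WT. It was taken as sae2∆.

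Counts were summed over regions and scaled to HpM with the total of all 16 chromosomes. Hotspots were called on 15 chromosomes, without chromosome III, with stretches less than 200 bp apart merged and stretches over 200 bp that had no hit in any map taken as masked. ORF boundaries were read from the R64 assembly's gene table, and its coordinates are not given. On chromosome VIII, moving this table did not raise the share of hits in promoter intervals above the 72.6% found without a shift. Replicate values are mean ± SD, and sign permutations were exact and two-sided. Strand differences were tested with edgeR 4.0.16 in R 4.3.3, with Benjamini-Hochberg adjustment over all pairs, and with DESeq2 1.42.0 as an alternative. The Watson and Crick counts of a replicate come from 1 library, which is the basis of the block. The hotspot caller and the strand test were tested on simulated data. All else was done in Python 3.11.15 (numpy 2.4.6, pandas 2.3.3 and, for figures, matplotlib 3.10.9). Alternatives covered each replicate left out, the total used for scaling, region boundaries, the hotspot caller, the correlation and the strand test. PCR copies cannot be told from separate molecules in these counts.

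The genes, window, lists and tests were chosen with earlier results of these data known. Named are ARG4, DED81, their neighbours, 8 genes of arginine synthesis (another gene of that list is not reported here), 20 aminoacyl-tRNA synthetase genes, the hotspots most alike in profile and the 8 strongest pairs. Sequence at the cut sites was not analysed here.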

Additional observations from a re-analysis of the deposited data

Results flagged for a closer look

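Of 44 measures of the window with a value in each of the 5 SPO11+ replicates, 3 had a replicate that stood far from the other 4 by Dixon's criterion, where chance alone gives about 1 in 20, or 2.2. The ratio of the first to the last 300 bp of ARG4 was 17.2 in replicate 2 and 4.12 to 5.16 in the others. Replicate 2 was also the deepest and had the lowest level in ORF interiors genome-wide, 0.0096 HpM per bp against 0.0170 to 0.0216 in the others, and the part of this in the ratio was not tested. The Watson share of hits upstream of ARG4 was 42.6% in replicate 4 and 46.2% to 47.4% in the others. In the interval between the 3′ ends of YSC83 and ARG4, replicate 3 had 3.78 HpM and the others 2.24 to 2.53 HpM, all from few hits.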

How the results depend on the processing

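Levels, the hotspot's strength and the window's share moved by less than 1 SD of the replicates under every alternative run. The mean r at 1 bp was 0.906 with sites of at least 8 hits and 0.848 on log2 counts. Of 159 pairs tested in the window, edgeR called 71, edgeR without the replicate block 60 (37.7%, against 41.3% of all pairs) and DESeq2 41 (25.8%, against 30.5%). The exact binomial test called 222 of 459 pairs (48.4%, against 37.4%), and the cause was not tested. The binomial test also called 141596 and 143774. With each replicate left out in turn the count was 49 to 71, lowest without replicate 2, where the share of all pairs called also fell, from 46.7% to 34.4%. The window's share of hits was then 0.216% to 0.231%, the level upstream of ARG4 868 to 959 HpM and upstream of DED81 820 to 895 HpM, and the strongest hotspot 850 to 938 HpM. The mean log2 ratio of the 2 intervals was 0.066 to 0.149, that of the gradient 2.23 to 2.75 in ARG4 and 0.731 to 0.786 in DED81, and r 0.916 to 0.922. Over the first and last 50% of the ORF the mean log2 gradient was 1.82 in ARG4, in place of 2.61, and 0.598 in DED81, in place of 0.754. Over 150 bp it was 2.77 and 0.998. Of the called pairs, 141627 lost its call without replicate 2 (adjusted p = 0.082 in edgeR), without replicate 3 (0.17), without replicate 4 (0.12) and by DESeq2 (0.069), 141611 without replicate 2 (0.055), and 143695 without replicate 4 (0.051). Without a filter on hits all 3 lost it. With 5 replicates the sign permutations could not pass 0.05 under any alternative, so their side of the threshold says nothing about stability. No paired analysis of SPO11+ against spo11-Y135F was possible because the control is a single library. That library also leaves levels inside ORFs, with few hits per replicate, without a replicated background.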
